A study of Mus musculus with 16 samples.

Results

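Epcam, Spp1, Sox9, Krt19 and Cd44 are 5 genes used as markers of biliary epithelium and of liver progenitor cells, and their acetylation was examined in mouse liver by H3K27Ac ChIP-seq. Each gene was represented by 1 fixed window of the NCBI37/mm9 genome, from 30000 to 125000 bp wide. The windows were touched by 126 of the 500869 peaks called on chromosomes 1 to 19 and X in 15 animals, and by 22 of the 56941 regions obtained when overlapping peaks of all animals were merged.

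Bile ducts are lined by cholangiocytes, which differ from hepatocytes in carrying Krt19 keratin, the surface molecule Epcam and the transcription factor Sox9. Chronic bile injury is known to be followed by a ductular reaction, in which small ducts and cells with both biliary and hepatocyte features expand around the portal tracts. Acetylation of histone H3 at lysine 27 marks active promoters and enhancers.

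There were 5 livers of Mdr2 wild type mice (WT, strain FVB.129P2 in the sample records and FVB/NJ in the study's methods), 5 inflamed livers of Mdr2-/- mice, and 5 hepatocellular carcinoma (HCC) nodules of Mdr2-/- mice, each from a different animal. The Mdr2-/- strain, FVB.129P2-Abcb4tm1Bor/J, lacks in the whole body the transporter that moves phosphatidylcholine into bile, so that toxic bile builds up next to hepatocytes. All 15 animals, WT included, had received clodronate liposomes at 50 μg per g of body weight 48 h before collection, a treatment meant to deplete liver macrophages. By the study's account it also lowered B and T lymphocytes in WT liver, with no significant change in Mdr2-/- tissue. By the sample records, inflamed livers were taken at 7 to 8 months and WT livers and nodules at 14 to 19 months. With these ages, age and stage cannot be told apart in the comparisons with inflamed livers. The study's text gives somewhat different ages, calls its WT mice age matched and states another clodronate dose. The tissue was not sorted, and in such bulk samples fewer cells of a type and less acetylation per cell cannot be told apart. The cells that carried a peak are not known. A peak at any of the 5 genes was therefore not read as a sign of biliary or progenitor cells.

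The lists held 26375 to 30268 peaks in WT livers, 35901 to 40909 in inflamed livers and 26683 to 42736 in nodules. Read depth is unknown, and the longer inflamed lists move with every gain reported here. Each comparison was therefore repeated on equal lists, the 26375 best-scored peaks of each animal, which dropped 26.5% to 35.5% of the inflamed lists, 0% to 12.9% of the WT lists and 1.15% to 38.3% of the nodule lists, the most in nodule 125279. WT animal 130748 and HCC animal 124711 shared the least with their groups. The base pairs under peaks in both of 2 animals, as a fraction of those under peaks in either, averaged 0.504 between WT 130748 and the other WT livers, which averaged 0.665 to 0.705, and 0.411 for HCC 124711, where the other nodules averaged 0.482 to 0.539. Animals were compared by the base pairs (bp) their peaks covered in a window and by the presence of a peak in a region.

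Promoter sequences are shown for the 3 genes that RefSeq (GRCm38.p6) gave a promoter for, 250 bases before to 50 after the start site, to set the letters of these promoters beside the peak data. They were not placed on the mm9 windows. Epcam lies at chr17:87635729-87636028 on the plus strand, Spp1 (its first listed start site) at chr5:104434861-104435160 on the plus strand, and Cd44 at chr2:102901616-102901915 on the minus strand. Capitals mark matches, on either strand, to the letters GGGCGG, known as the GC box, to the CCAAT box, named for its letters, or to the letters TATAAA, here called the TATA box. No match overlapped another.
Epcam: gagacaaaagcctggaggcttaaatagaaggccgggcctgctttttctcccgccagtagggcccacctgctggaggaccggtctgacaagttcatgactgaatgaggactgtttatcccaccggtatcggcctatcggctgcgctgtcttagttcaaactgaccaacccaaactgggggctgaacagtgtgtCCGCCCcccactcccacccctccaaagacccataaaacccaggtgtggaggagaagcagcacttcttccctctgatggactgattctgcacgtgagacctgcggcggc
Spp1: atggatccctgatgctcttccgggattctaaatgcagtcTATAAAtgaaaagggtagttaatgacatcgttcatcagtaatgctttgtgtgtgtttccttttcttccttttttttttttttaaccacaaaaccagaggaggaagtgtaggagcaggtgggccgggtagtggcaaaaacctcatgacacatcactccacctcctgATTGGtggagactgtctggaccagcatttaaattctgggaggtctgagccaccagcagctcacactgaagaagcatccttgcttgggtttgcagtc
Cd44: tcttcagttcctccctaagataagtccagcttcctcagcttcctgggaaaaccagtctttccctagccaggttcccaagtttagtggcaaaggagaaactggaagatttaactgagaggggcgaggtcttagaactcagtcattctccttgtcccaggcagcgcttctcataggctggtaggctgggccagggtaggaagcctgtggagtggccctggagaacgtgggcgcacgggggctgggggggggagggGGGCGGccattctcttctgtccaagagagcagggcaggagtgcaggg

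The Epcam promoter held a GC box whose first base lay 58 bases before the start site, and the Cd44 promoter held one just after the start site. GC boxes were present in 35.7% of the 32851 mouse promoters of this length. The Spp1 promoter held a CCAAT box 46 bases and a TATA box 211 bases before the start site, motifs found in 37.4% and 13.6% of all promoters. Its GC content was 45.3%, against 57% for Epcam, 58% for Cd44 and a median of 52.7% over all promoters. The AP-1 motif (TGANTCA), present in 7.81% of promoters, was absent from these letters in all 3.

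In inflamed livers, the windows of Spp1, Krt19 and Cd44 were acetylated over more base pairs than in WT livers, with no overlap between the groups, while Sox9 was acetylated in both. These 3 of 5 windows passed an exact permutation test. On equal lists Spp1 and Cd44 passed and Krt19, with no peak left, did not. In inflamed animals 148998 and 149199 the Spp1 length then left came only from the peak at the far end of the window. By the same rule, the share of genome tiles with a peak that were called higher in inflamed livers was 23.4% for tiles as wide as the Epcam window, 24% for Spp1, 24.9% for Sox9, 22.2% for Krt19 and 28.6% for Cd44. The windows were touched by 2 to 4 peaks per WT liver, 14 to 19 per inflamed liver and 1 to 18 per nodule.

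**Figure D1:**
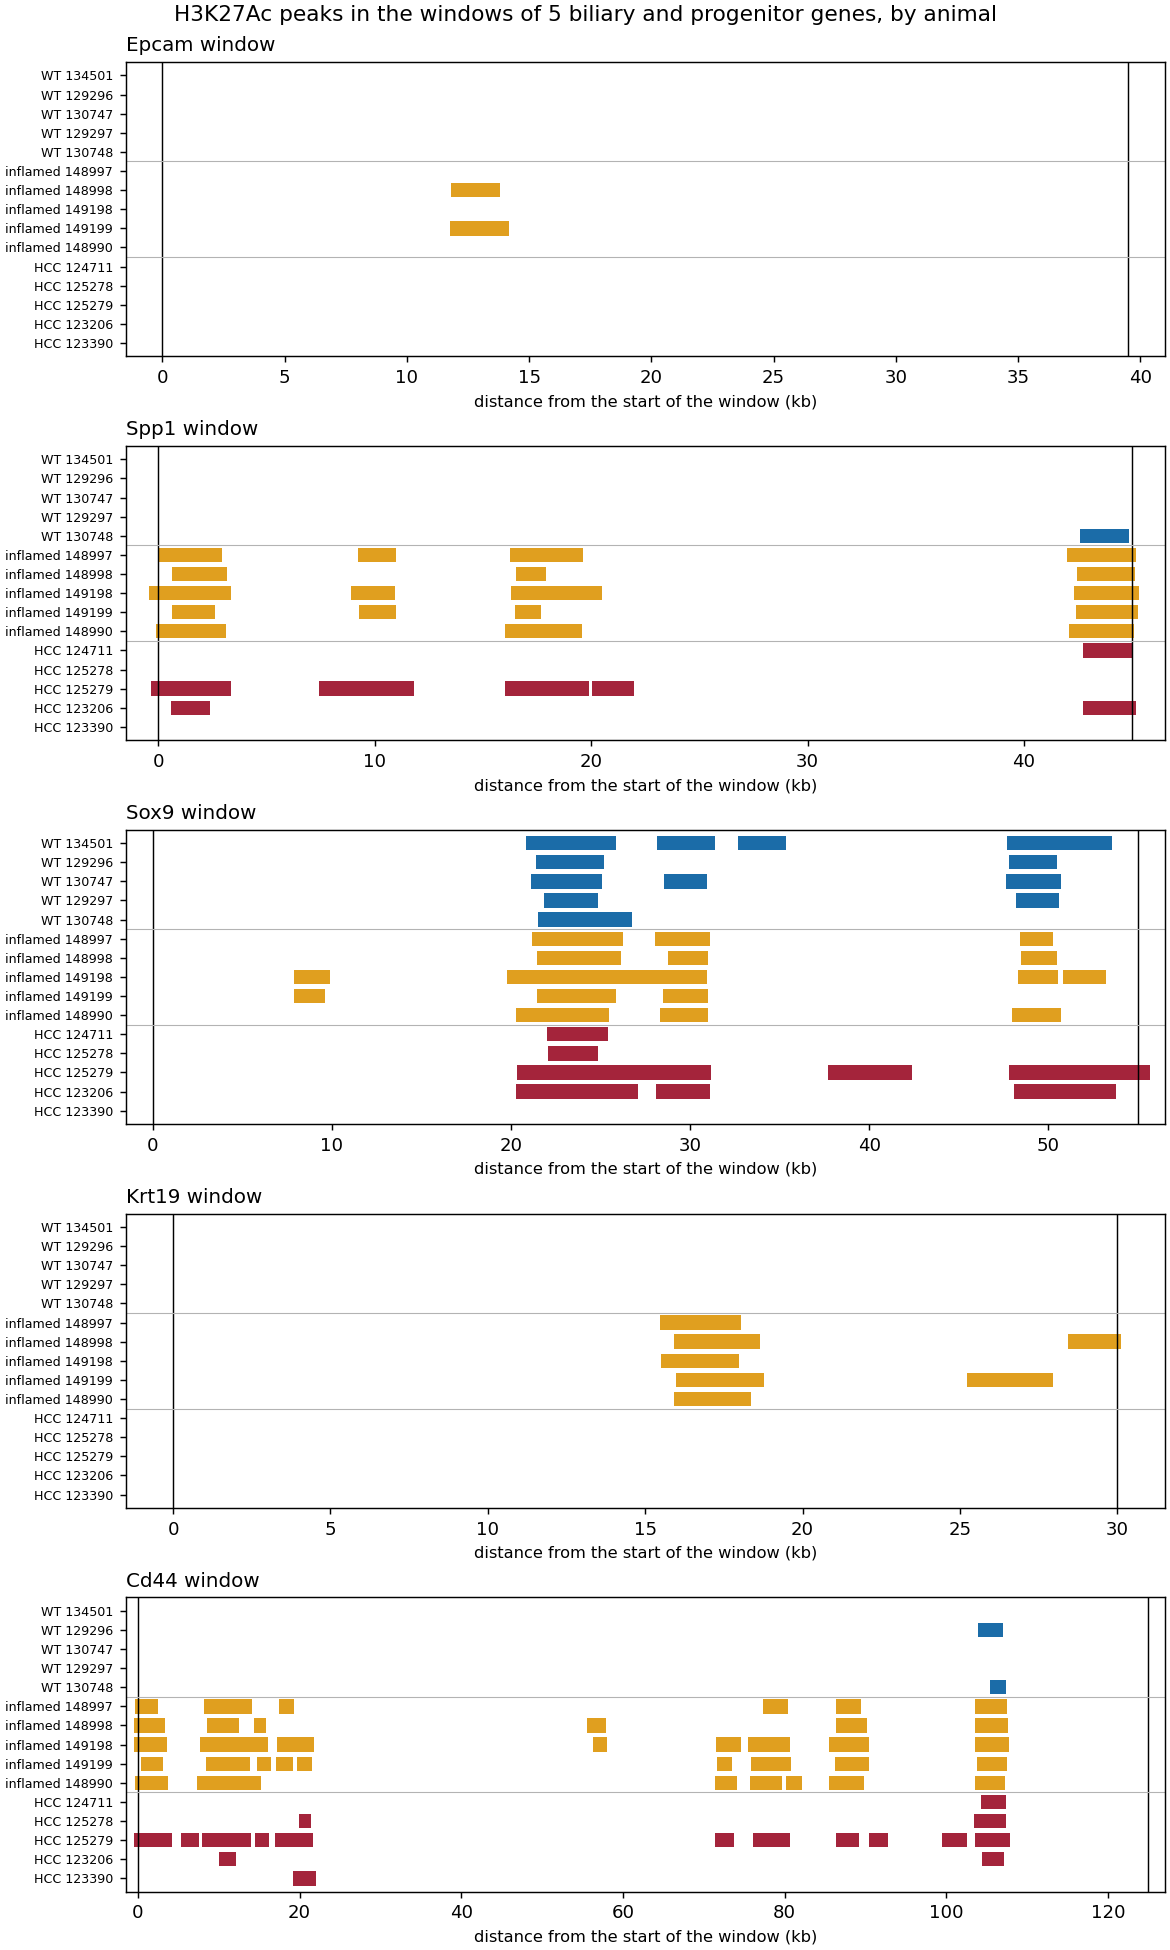
Peaks in the 5 windows, with distance from the start of the window in kb on the horizontal axis and 1 row per animal; bars are peaks and vertical lines the window ends. WT livers (blue) have peaks mainly in the Sox9 window, inflamed livers (yellow) also in the Spp1, Krt19 and Cd44 windows, and HCC animal 125279 (red) accounts for 18 of the 32 nodule peaks.

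Krt19, the keratin of bile duct cells, had peaks in inflamed livers only among these 15 animals. Peaks covered 2550, 4290, 2471, 5516 and 2444 bp in inflamed animals 148997, 148998, 149198, 149199 and 148990, and 0 bp in every WT liver and every nodule. The groups did not overlap, and the mean of 3454 ± 1392 bp (SD, n = 5) was higher than the 0 bp of WT livers (two-sided exact permutation p = 0.00794, which is the lowest value possible for 5 against 5 animals, and 0.0472 after adjustment over all tiles of that width). Nodules were lower than inflamed livers (exact permutation p = 0.00794, adjusted p = 0.136), where 10.6% of tiles were called lower. As this exact p is the lowest possible, no tile of that width could have had a lower adjusted p in this comparison.

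Most of the Krt19 length, 2593 bp of the inflamed mean, lay in 1 region, chr11:100005479-100008760, which had a peak in each of the 5 inflamed animals and in none of the other 10. Genome-wide, 485 regions had exactly this pattern. The peaks were weak, ranking above 7.34% to 28.8% of the peaks of their own list, and none remained in any animal on equal lists. The other 2 regions of the window, chr11:100015216-100017948 and chr11:100018429-100020108, each had a peak in a single inflamed liver and added 547 and 336 bp to the mean. RefSeq places Krt15 and Krt9, also keratin genes, next to Krt19, and without an mm9 annotation a region was not assigned to one of them.

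Spp1, which encodes the secreted glycoprotein osteopontin, was covered over 11052, 6466, 12259, 7540 and 9632 bp in the inflamed livers, in the same order of animals. In WT livers, animal 130748 had 2247 bp and the other 4 had 0 bp. All inflamed livers lay above all WT livers, with means of 9390 ± 2399 bp (SD, n = 5) and 449 ± 1005 bp (SD, n = 5) (exact permutation p = 0.00794, adjusted p = 0.0438). On equal lists the difference was 5148 bp, with the same p, an adjusted p of 0.0541 and 14.6% of tiles called higher. Inflamed animals 148998 and 149199 then kept 2543 and 2600 bp, only from the peak at the far end of the window. WT animal 130748 kept its 2247 bp there too, and that peak was not assigned to a gene.

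In nodules 124711, 125278, 125279, 123206 and 123390 the Spp1 window was covered over 2248, 0, 13583, 4078 and 0 bp. Nodule 125279 exceeded every inflamed liver and the other 4 lay below all of them. The mean of 3982 ± 5633 bp (SD, n = 5) did not pass the test against inflamed livers (exact permutation p = 0.0873, adjusted p = 0.443, with 11.1% of tiles called lower) or against WT livers (exact permutation p = 0.167, adjusted p = 0.700, with 5.87% called higher). Without nodule 125279 the difference from inflamed livers was -7808 bp (exact permutation p = 0.0159, not adjusted) and that from WT livers was 1132 bp (exact permutation p = 0.333, not adjusted), where all 5 nodules gave 3532 bp.

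Of the 4 Spp1 regions, chr5:104844589-104848376 and chr5:104861000-104867000 had a peak in 5 of 5 inflamed and 0 of 5 WT livers. In nodules the first had a peak in animals 125279 and 123206 and the other in animal 125279 alone. The region chr5:104852415-104856821 had a peak in 3 inflamed livers and 1 nodule. At the far end, chr5:104886982-104890313 had a peak in 5 inflamed livers, 1 WT liver and 2 nodules. RefSeq lists Mepe and Pkd2 as the neighbours of Spp1, and peaks near the window ends were not assigned to a gene.

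Cd44, the cell surface receptor for hyaluronan, had the widest window of the 5 and the greatest covered length in inflamed livers. It was covered over 20773, 19207, 35883, 28490 and 28351 bp in inflamed livers, while WT animals 129296 and 130748 had 3068 and 1960 bp and the other 3 had 0 bp. The groups did not overlap, and the means were 26541 ± 6734 bp and 1006 ± 1432 bp (SD, n = 5 each; exact permutation p = 0.00794, adjusted p = 0.0373). On equal lists the difference was 16783 bp (exact permutation p = 0.00794, adjusted p = 0.0475, with 16.7% of tiles called higher).

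In nodules, in the order given for Spp1, the Cd44 window was covered over 3122, 5304, 38628, 4830 and 2867 bp. Nodule 125279 was above every inflamed liver, and the other 4 were below all inflamed livers. Of these, 3 were above every WT liver, and nodule 123390 was below WT animal 129296. The mean of 10950 ± 15508 bp (SD, n = 5) was higher than in WT livers (exact permutation p = 0.0159), with overlapping groups, an adjusted p of 0.386 and 6.81% of tiles called higher. This call was lost on equal lists, where the difference was 5227 bp (exact permutation p = 0.0873, with 4.96% of tiles called higher). It was also lost without WT 130748 and HCC 124711 (exact permutation p = 0.0571), though the difference then rose from 9945 to 12140 bp, with fewer animals per group. Without nodule 125279 the difference from WT livers went from 9945 to 3025 bp (exact permutation p = 0.0317, not adjusted). The difference from inflamed livers was -15591 bp, which did not pass (exact permutation p = 0.0794, adjusted p = 0.392, with 12.4% of tiles called lower). On equal lists it was -11556 bp (exact permutation p = 0.0397, adjusted p = 0.312, with 8.71% of tiles called lower), and without nodule 125279 it was -22510 bp (exact permutation p = 0.0159, not adjusted).

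The Cd44 window held 9 regions. The region at chr2:102738480-102742860 had a peak in 5 inflamed livers, 2 WT livers and 4 nodules and carried the best-ranked peak of every inflamed liver in the window except that of animal 148990. Regions chr2:102634473-102639259, chr2:102640385-102651413 and chr2:102720447-102727790 had a peak in 5 of 5 inflamed and 0 of 5 WT livers. The first and the last of these shared their pattern over the 15 animals with the Spp1 region at chr5:104861000-104867000, and 466 regions of the genome had it. The middle one shared its pattern with the Spp1 region at chr5:104844589-104848376, as did 253 regions in all.

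**Figure D2:**
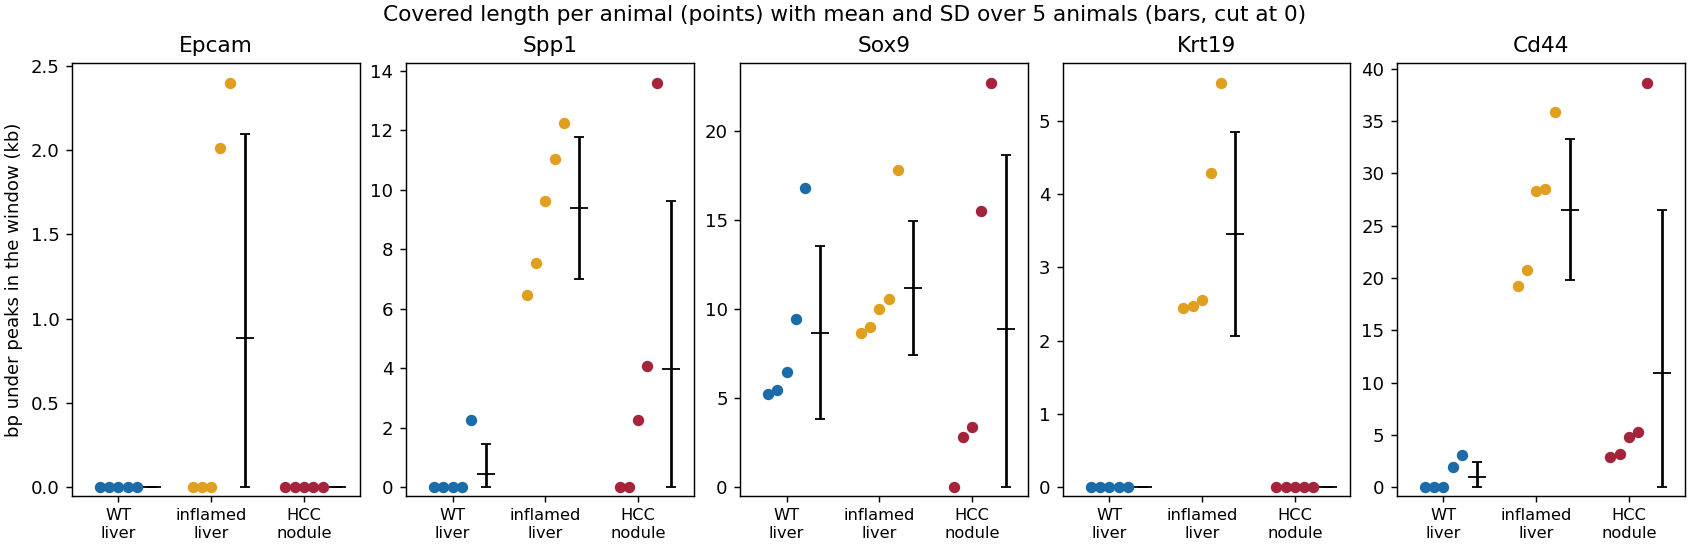
Covered length in kb per animal in each window, with points for animals and bars for the mean and SD over 5 animals per group, cut at 0. In the Spp1, Krt19 and Cd44 panels all inflamed livers lie above all WT livers, and in the Spp1, Sox9 and Cd44 panels nodule 125279 is the highest animal.

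Sox9, a transcription factor of biliary and progenitor cells, was the one gene of the 5 with peaks in every WT liver. WT animals 134501, 129296, 130747, 129297 and 130748 were covered over 16817, 6437, 9450, 5434 and 5227 bp. Inflamed livers, in the order given for Krt19, were covered over 9985, 8965, 17780, 8631 and 10585 bp. The groups overlapped, with means of 8673 ± 4855 and 11189 ± 3766 bp (SD, n = 5 each), and did not pass the test (exact permutation p = 0.373, adjusted p = 0.640). On equal lists the difference was 59.8 bp (exact permutation p = 0.984, with 15.1% of tiles called higher), and without WT animal 134501, the most covered WT liver, it was 4552 bp (exact permutation p = 0.0476, not adjusted). Without inflamed animal 149198, the most covered inflamed liver, it was 869 bp (exact permutation p = 0.746), and without WT animal 130748 it was 1655 bp (exact permutation p = 0.556). Nodules, in the order given for Spp1, were covered over 3387, 2789, 22678, 15507 and 0 bp. Their mean of 8872 ± 9752 bp (SD, n = 5) did not pass against inflamed livers (exact permutation p = 0.595, with 11.5% of tiles called lower) or WT livers (exact permutation p = 0.968, with 6.04% called higher), and they spanned a range wider than either. Without nodule 125279 the difference from inflamed livers went from -2317 to -5768 bp (exact permutation p = 0.127), and that from WT livers from 199 to -3252 bp (exact permutation p = 0.444).

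The main Sox9 region, chr11:112639802-112651376, had a peak in all animals except nodule 123390, a pattern held by 735 regions. The best peak of each animal in the window, which lay in this region, stood above 77.4% to 84.6% of the list in inflamed livers, 36.5% to 81.8% in WT livers and 15.7% to 88.5% in the 4 nodules with a peak. Covered length in this region averaged 8186 bp in inflamed and 5336 bp in WT livers (exact permutation p = 0.0476, adjusted p over all regions 0.194). A further region, chr11:112667640-112675712, had a peak in 4 WT livers, 4 inflamed livers and 2 nodules. The other 3 were seen in 1 or 2 animals each, 2 inflamed livers at chr11:112627885-112629889, WT animal 134501 at chr11:112652656-112655336 and nodule 125279 at chr11:112657698-112662385.

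Epcam, the epithelial cell adhesion molecule, was the least acetylated of the 5. Peaks of 2014 and 2398 bp were present in inflamed animals 148998 and 149199, at chr17:88034776-88037173, and no other animal had a peak in the window. Inflamed livers averaged 882 ± 1216 bp (SD, n = 5), against 0 bp in WT livers and in nodules (exact permutation p = 0.444 for each, adjusted p = 0.708 and 0.848, with 10.9% of tiles called lower in nodules). With peaks in only 2 animals this test could not have passed, so it does not decide whether the groups differ. The study, from snapshots of representative samples, described acetylation at the Epcam promoter as induced in inflamed livers and repressed in tumors. The peaks ranked above 24.5% and 19.4% of their lists and were not among the equal lists. With the window extended by 10000 bp on each side the difference from WT livers was 1776 bp (exact permutation p = 0.0159, not adjusted), which took in peaks outside the window that WT livers and nodules also had.

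**Figure D3:**
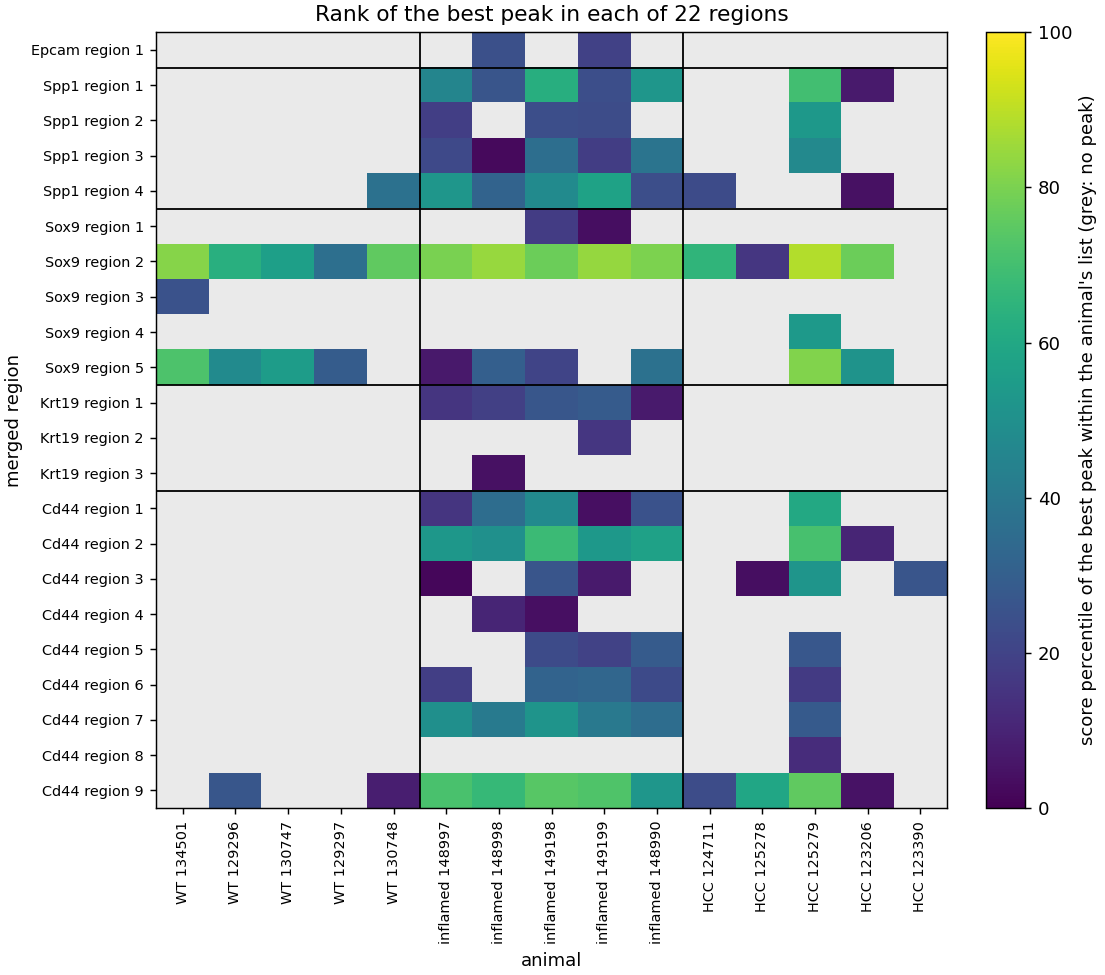
Score percentile of the best peak of each animal (columns) in each of the 22 merged regions (rows), as the percent of that animal's peaks with a lower score; grey cells have no peak. The Sox9 region 2 row is filled in all animals except nodule 123390, at percentiles from 15.7 to 88.5. The Krt19 region 1 row is filled in the 5 inflamed livers only and stays dark.

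Counted by region, 6 of 22 (27.3%) had a peak in all inflamed livers and no WT liver, where 4.82% of all merged regions were called so. Of these, 2 lay in the Spp1 window, 1 in the Krt19 window and 3 in the Cd44 window. The genes and windows were chosen with earlier results of these data known, and calls within a window are not independent. A WT peak was present in 5 of the 22 regions, against 58.1% of all regions. The share above the background is therefore a description and not a test. No region showed the opposite pattern, against 0.399% of all regions. On equal lists 2 of the 6 calls were left, both in the Cd44 window, with a background of 1.72%. By covered length, 10 of 22 regions were higher in inflamed livers at an unadjusted exact p under 0.05, with 17% of all regions so called. After adjustment 0 of 22 had a p under 0.05, the smallest being 0.0634. That value went with the lowest exact permutation p possible, 0.00794, so with these lists no region could have passed. No region of all 56941 did (0%), so this count does not set the 22 apart.

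Between inflamed livers and nodules, 1 of 22 regions (4.55%) was lost, the Krt19 region, against a background of 1.28%, and none was gained (0.105%). Without nodule 125279, 4 of 22 were lost, where the background was 2.49%. On equal lists 1 region was again lost, but it was the Cd44 region at chr2:102720447-102727790 and not that of Krt19 (background 0.699%). By covered length 4 regions were lower in nodules at an unadjusted exact p under 0.05 (background 9.2%), and with adjustment 0 of 22 and 0 of all 56941 regions passed. Here the lowest exact permutation p possible, 0.00794, had an adjusted p of 0.177, so none could have passed. Between nodules and WT livers no region was gained or lost by presence, where the background was 0.22% and 0.146%. The comparisons with inflamed livers share those 5 animals, and their calls are not independent of each other.

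Animals also differed in how many of the 22 regions they held relative to the whole genome. WT livers had a peak in 9.09% to 13.6% of them and in 39.8% to 44.9% of all merged regions. Inflamed livers had a peak in 54.5% to 72.7% of the 22 and 52.2% to 60.4% of all. Nodules 124711, 125278, 123206 and 123390 had a peak in 13.6%, 13.6%, 27.3% and 4.55% of the 22, and in 36.9%, 54.5%, 45.1% and 46.3% of all regions. Nodule 125279, with the longest list, had a peak in 63.6% of the 22 and 64.2% of all. The other 4 nodules thus held a smaller share of the 22 regions than of all regions, as every WT liver did, and nodule 125279 held about equal shares. These shares describe windows chosen with earlier results of these data known and were not tested.

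**Figure D4:**
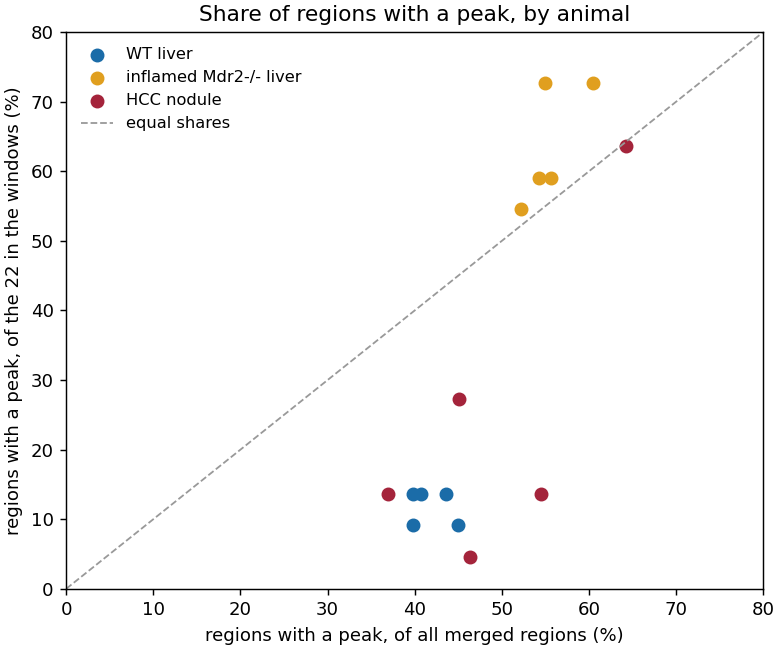
Percent of the 22 regions with a peak (vertical axis) against percent of all 56941 merged regions with a peak (horizontal axis), 1 point per animal; the dashed line marks equal shares. Inflamed livers and nodule 125279 lie near or above the line, and WT livers and the other 4 nodules lie below it.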

How the data were processed

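H3K27Ac ChIP-seq peak lists of 15 animals, 5 per group by sample title, were analysed. The WT liver control sample, listed as an IgG control but titled Input, was not analysed here. Per the submitters' processing notes, Bowtie 0.12.7, MACS 1.4 and genome build mm9 were used. The authors called peaks per animal and deposited positions and a score, whose scale, like the control and filters, is not given in the sources used here. Scores ranked peaks within a list only, a percentile being the percent of that list with a lower score. Read counts were not used here, so depth is unknown.

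The 5 genes, their windows and the lists were chosen with earlier results of these data known. All merged regions (at least 1 bp of overlap) in a window are described, and 28 peaks on chromosome Y were left out. Covered bp in a window were compared with an exact permutation test (two-sided, 252 assignments), in 15 tests over 3 comparisons, with a threshold of p = 0.05. Benjamini-Hochberg adjustment ran over all genome tiles of that width holding a peak, or over all regions. A gained region had a peak in each animal of the first group and in no animal of its comparison group, and a lost region the reverse.

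Alternatives were the top 50% of each list, equal lists of 26375 peaks, windows extended by 10000 bp, peak number, covered bp per Mb under peaks, 50% coverage of a region, at least 4 against at most 1 animals, and leaving out each animal or WT 130748 with HCC 124711. The permutation test was checked on simulated covered lengths with planted differences, and the count of covered bp on made-up peaks. An mm9 annotation was not used here, so other biliary genes, markers of other cell types and positions within genes were not analysed. RefSeq (GRCm38.p6) gave names, neighbours and promoters, the last for 3 of the 5 genes. Python 3.11.15, NumPy 2.4.6 and matplotlib 3.10.9 were used.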

Additional observations from a re-analysis of the deposited data

Results flagged for a closer look

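Among 15 combinations of window and group, 4 had the same covered length in all 5 animals, and in 3 of the other 11 a single animal was far from the other 4. WT animal 130748 covered 2247 bp of the Spp1 window, where the other WT livers covered 0 bp. Inflamed animal 149198 covered 17780 bp of the Sox9 window, against 8631 to 10585 bp in the other inflamed livers. Nodule 125279 covered 38628 bp of the Cd44 window, against 2867 to 5304 bp in the other nodules. For normally distributed values chance sets an animal apart in about 1 in 20 groups, but whether covered length is so distributed was not tested. That rate does not hold for the WT livers at Spp1, where 4 animals were at 0 bp and any single peak would have stood out.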

How the results depend on the processing

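The gains of inflamed over WT livers in the Spp1 and Cd44 windows passed the exact test under every alternative run. For Spp1 on equal lists, inflamed animals 148998 and 149199 kept only the peak at the far end of the window. For Krt19 the difference was 0 bp on the top 50% of each list and on equal lists, in both comparisons with inflamed livers, since no peak was left. Epcam passed for inflamed against WT with the extended window (1776 bp). Leaving out 1 animal each, Spp1 for HCC against inflamed ranged from -7808 to -4413 bp, Cd44 for HCC against inflamed from -22510 to -13255 bp, both passing without nodule 125279, and Sox9 for inflamed against WT from 869 to 4552 bp, passing without WT 134501. Cd44 for HCC against inflamed also passed on equal lists (-11556 bp) and per Mb under peaks (-111 bp per Mb). Cd44 for HCC against WT no longer passed on the top 50% (4643 bp) or on equal lists (5227 bp). Without WT 130748 and HCC 124711 it did not pass either, with a larger difference (12140 bp) but fewer animals. Sox9 for HCC against inflamed turned to 625 bp on the top 50% and ranged from -5768 to -99.0 bp with 1 animal left out. Sox9 for HCC against WT, near 0 in the full lists, turned to -359 bp on equal lists, -1200 bp with the extended window, -0.8 peaks by number and -7.78 bp per Mb, and ranged from -3252 to 2417 bp with 1 animal left out. Regions gained in inflamed livers numbered 2 on the top 50% (2.01% of all regions), 2 on equal lists (1.72%), 3 at 50% coverage (4.61%) and 8 at the looser animal rule (12.4%). On the top 50% both lay in the Cd44 window. Of them chr2:102640385-102651413 was also called on the full lists, and chr2:102738480-102742860 was not. Regions lost in nodules numbered 0 on the top 50% (0.365%), 5 at the looser rule (6.19%) and 1 to 4 with 1 animal left out. Apart from the removal of peaks on shorter lists, the cause of these changes was not tested. No paired analysis was possible because animal numbers are not shared between groups.

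Peak lists hold no read depth, so absence of a peak is not absence of acetylation. Weak peaks, which Krt19 and Epcam rest on, depend most on list length. By the sample records age differs with the inflamed stage, and whether sequencing depth, age or cell makeup had a part was not tested.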
